A study of Mus musculus with 3 samples.

Results

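The nuclei described here are those of mouse hippocampus that met a rule meant for CA3 and CA2 pyramidal neurons, the excitatory cells between the dentate gyrus and CA1. They were selected on their own UMI counts (unique molecular identifiers, 1 per captured RNA molecule). A nucleus was taken when it had at least 1 UMI of at least 3 of 6 genes, Nectin3, Rnf182, Trps1, Ccbe1, Trhde and Tafa1, and when the sum over these 6 exceeded 2 times each of 3 other sums. Those sums were over Prox1, Plk5, C1ql3, Trpc6 and Glis3 for granule neurons, over Fibcd1, Mpped1, Man1a, Ndst3 and Wfs1 for CA1, and over Tshz2, Fn1, Rxfp1 and Vwc2l for subiculum and cortex. Nuclei with more than 1 UMI summed over Col6a1, Cpne7 and Clec18a, over Gad1 and Gad2, or over Mog, Mag, Aqp4 and Csf1r were left out. This rule took 1022 of 35322 barcodes.

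The study measured RNA in single nuclei from frozen hippocampus, with the 10x 3′ chemistry, in mice given doxorubicin, a chemotherapy drug that poisons topoisomerase II, with or without ACY-1083, which inhibits HDAC6, a deacetylase of tubulin and other proteins of the cytoplasm. Its title names cognitive impairment after doxorubicin and its reversal by HDAC6 inhibition as the question. The 3 libraries were control (no treatment), doxorubicin, and doxorubicin with ACY-1083, and each pooled the hippocampi of both sides from 4 mice. The labels give no dose, timing, strain, sex or age, and the control was untreated rather than given a vehicle. With 1 library per group, no test between groups was possible and no p-value is given, so every difference below is between 3 pools of tissue. Intervals are 95% intervals that cover counting error only, and members of 1 library are not replicates of its treatment. A gene was called higher or lower when it differed by at least 1.5-fold with an interval that left out 1, and rose and fell are used of called genes alone.

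CA3 pyramidal neurons receive the mossy fibres of the dentate granule cells on large spines of their proximal dendrites, excite each other through recurrent collaterals, and drive CA1 through the Schaffer collaterals. The circuit is known for storing and completing patterns, for strong kainate receptor currents at the mossy fibre synapse, and for its sensitivity to seizures. CA2, a narrow zone between CA3 and CA1, expresses its own set of genes, such as Rgs14, Amigo2 and the vasopressin receptor gene Avpr1b, and is known for a part in social memory.

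Control had 204 such nuclei among 10909 barcodes, a share of 1.87% (interval 1.62% to 2.14%). Doxorubicin had 212 among 12221, a share of 1.73% (1.51% to 1.98%). The library given both agents had 606 among 12192, a share of 4.97% (4.59% to 5.37%). The first 2 intervals overlap and the last lies above both, but that library also had deeper nuclei. Median UMIs per selected nucleus were 2931.5, 3037.5 and 5970 in the order control, doxorubicin, doxorubicin with ACY-1083, an order kept below wherever 3 values stand together. When every barcode was first thinned to 1000 UMIs, leaving out shallower ones, the rule took 1.32%, 1.12% and 3.70%. Nuclei that met the rule before thinning as well made up 0.804%, 0.744% and 1.53%, and those of them in the CA2/CA3-like groups defined below 0.741%, 0.586% and 0.928%. The nuclei selected held 613654, 653384 and 3915095 UMIs, of which Malat1, a long nuclear RNA, took 31.8%, 34.1% and 9.36%. No barcode was selected in more than 1 library, and 12, 7 and 29 of the selected nuclei were scored as doublets and kept. More nuclei of a kind and more RNA captured per nucleus both raise the number that pass a rule on UMIs, and these cannot be told apart from the shares.

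**Figure D1:**
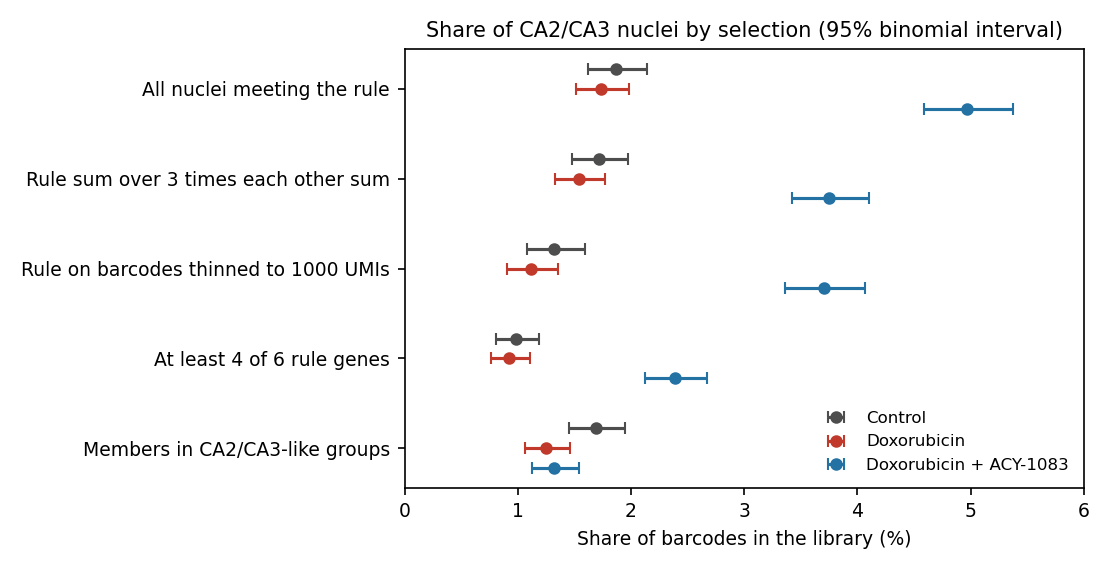
Share of barcodes taken (horizontal axis, percent) in each library, under the rule as given, stricter rules, thinning, and within the CA2/CA3-like groups, with points as values and bars as 95% Clopper-Pearson intervals. The rule as given took 1.87%, 1.73% and 4.97% of barcodes, and nuclei in groups named CA2/CA3-like made up 1.69%, 1.25% and 1.32%.

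Of the genes that chose the nuclei, Nectin3 encodes a cell adhesion protein of puncta adherentia, Trps1 a GATA-type transcriptional repressor, Rnf182 a ubiquitin ligase, Trhde the ectoenzyme that degrades thyrotropin-releasing hormone, Ccbe1 an extracellular matrix protein and Tafa1 a small secreted protein. Nectin3 (chromosome 16, 46387706 to 46498525, minus strand, GRCm38) was detected in 52.0%, 52.8% and 49.3% of the selected nuclei and in 4.63%, 4.95% and 12.2% of the other barcodes. Trps1 (chromosome 15, 50654752 to 50890463, minus strand) was detected in 79.4%, 81.6% and 79.0% of them and in 11.1%, 11% and 38.0% of other barcodes. Tafa1 (chromosome 6, 96113154 to 96657198, plus strand) was detected in 94.1%, 91.5% and 94.1% and in 31.3%, 31.0% and 57.2% of other barcodes. Tafa1 thus had the widest background of the 6, and it supplied 44.9%, 41.2% and 58.6% of the UMIs that chose the nuclei. Nectin3 supplied 8.52%, 8.07% and 3.50% of those UMIs, less in each library than Trps1 or Tafa1.

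Of the selected nuclei, 97, 99 and 315 had exactly 3 of the 6 genes. A further 196, 209 and 605 nuclei had 2 of them and met every other condition. Neurod6, a transcription factor of pyramidal neurons, had 213, 262 and 90.1 CPM (UMIs scaled to a common library total) in the nuclei with 3 genes and 183, 165 and 61.3 CPM in those with 2. Iyd, the iodotyrosine deiodinase gene and a CA3 marker, had 55.2, 18.5 and 2.0 CPM against 11.8, 12.3 and 1.95 CPM. With ACY-1083, the nuclei just inside and just outside the rule therefore had nearly the same Iyd level. The margin over the other sums was under 2.5 times in 5, 6 and 63 selected nuclei, and 16, 21 and 210 nuclei failed it with 1.5 to 2 times.

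A CA3-like label held for most selected nuclei of control and doxorubicin, and not for most of those of doxorubicin with ACY-1083. The list of CA2 genes took no part in the name CA2/CA3-like and, as described below, did not set the selected nuclei apart. The nuclei were clustered in each library on its own, and a group was named from fixed marker lists by a threshold set after the data were seen, a mean log2 difference of at least 0.5 from the barcodes of the library that the rule did not take. Control had groups of 125 and 59 nuclei that were CA2/CA3-like, 184 of its 204, and an unnamed group of 20. Doxorubicin had a CA2/CA3-like group of 153 and an unnamed group of 59 led by Csf2rb2 and Ttn, in which the mossy cell list stood highest. On genes the selection did not use, the mossy list had a mean log2 difference of 0.87 there and the further CA3 genes 0.20, and the group has no name because more CA3 genes, those of the selection itself, were among its 10 leading genes. Control had such nuclei too: at Leiden resolution 1, an unnamed group of 26 was led by Csf2rb2, Cpne9 and Ttn. Its mossy list had a mean log2 difference of 1.18 and its further CA3 genes 0.39. In the library given both agents 161 of 606 nuclei (26.6%, interval 23.1% to 30.3%) were CA2/CA3-like, led by Trhde, Trps1, Nectin3, Ccbe1 and Grik4. A granule-like group of 87, an astrocyte-like group of 82 and an oligodendrocyte-precursor-like group of 30 were also among the 606, led by Sema5a and Rfx3, by Gpc5 and Slc1a2, and by Lhfpl3 and Pdgfra. The other 3 groups had no name. The largest, 160 nuclei, was led by Chrm3, Galntl6 and Iqgap2 among named genes, with Csf2rb2 and Htr2c in a group of 49 and Ntng1 and Rxfp1 in a group of 37. In the group of 49 the mossy list also stood highest, at 0.64 against 0.36 for the further CA3 genes. At Leiden resolution 1, a group of 21 nuclei of this library was named mossy-cell-like. Counted over CA2/CA3-like groups alone, the nuclei made up 1.69% (1.45% to 1.95%), 1.25% (1.06% to 1.47%) and 1.32% (1.13% to 1.54%) of barcodes. These intervals overlap between doxorubicin with and without ACY-1083, where the rule itself gave shares that did not.

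**Figure D2:**
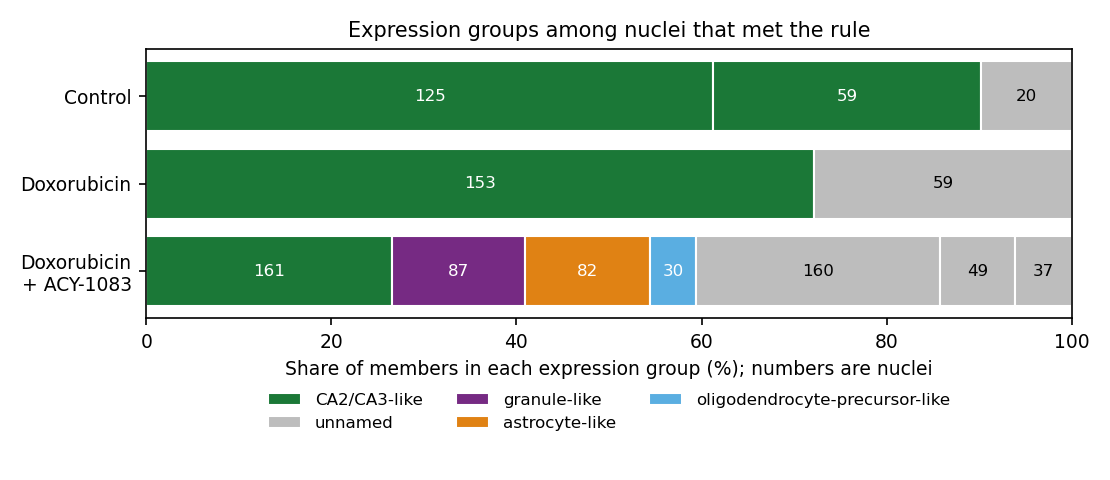
Nuclei taken by the rule in each library, split by the groups found among them (horizontal axis, percent of the 204, 212 and 606 nuclei), with the number of nuclei written in each block. CA2/CA3-like groups fill most of control and doxorubicin and 161 of 606 nuclei with ACY-1083.

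The CA2/CA3-like name rests partly on 9 further CA3 genes that the rule did not use, so their levels describe the groups and test nothing. Socs2, a suppressor of cytokine signalling, had 125, 128 and 84.0 CPM in the CA2/CA3-like groups, 21.1, 54.3 and 17.3 CPM in the other selected nuclei, and 7.70, 9.85 and 3.94 CPM in granule neuron nuclei of the same libraries. Elavl2, a neuronal RNA-binding protein, had 224, 228 and 288 CPM against 42.1, 185 and 87.9 CPM and, in granule nuclei, 35.1, 26.9 and 19.0 CPM. Iyd had 67.1, 68.2 and 20.4 CPM against 0, 10.9 and 3.08 CPM, with 8.56, 13.8 and 10.0 CPM in granule nuclei. All 3 genes were thus highest in the CA2/CA3-like groups of every library. Grik4, the kainate receptor subunit of the mossy fibre synapse, had 106, 109 and 1150 CPM there, 2.06-fold (1.42 to 3.0), 2.21-fold (1.51 to 3.19) and 3.90-fold (3.58 to 4.25) the granule level. Dkk3, a secreted glycoprotein related to Wnt antagonists, stood 4.02-fold, 4.39-fold and 6.75-fold above it. But its 166, 162 and 163 CPM there were near the 169, 174 and 146 CPM of the other selected nuclei. Dkk3 thus did not set the CA2/CA3-like groups apart from these. Npy2r, a neuropeptide Y receptor, stood 1.69-fold, 1.08-fold and 0.948-fold to the granule level with intervals that held 1 in each library, and Coch had at most 5 UMIs in the CA2/CA3-like groups of a library.

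Among excitatory genes, Neurod6 was 6.81-fold (4.85 to 9.89), 10.6-fold (7.48 to 15.5) and 14.2-fold (9.99 to 21.2) above granule nuclei in the CA2/CA3-like groups. Slc17a7, the vesicular glutamate transporter, was 1.3-fold, 1.46-fold and 1.3-fold, with every interval above 1. Nrgn, which binds calmodulin in dendritic spines, was at 0.798-fold, 0.490-fold and 0.601-fold the granule level. Neurod6 and Slc17a7 were thus above the granule level in all libraries and Nrgn below it.

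The CA2 genes did not set the selected nuclei apart as a whole. The 12 CA2 genes summed to 125, 124 and 196 CPM in the selected nuclei, below their 188, 200 and 268 CPM in granule nuclei and no higher than their 169, 191 and 194 CPM over all barcodes by more than counting error. They summed in the CA2/CA3-like groups to 115, 109 and 236 CPM, and with ACY-1083 that (211 to 264 CPM) lay above all barcodes (191 to 198 CPM) and below granule nuclei. Rgs14, a regulator of G-protein signalling that limits plasticity in CA2, had 17, 5 and 58 UMIs. Amigo2, an adhesion protein of CA2 neurons, had 10, 11 and 26 UMIs. Avpr1b was found with 0, 0 and 2 UMIs. No group was led by CA2 genes, and CA2 nuclei were not told apart from CA3 nuclei below.

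**Figure D3:**
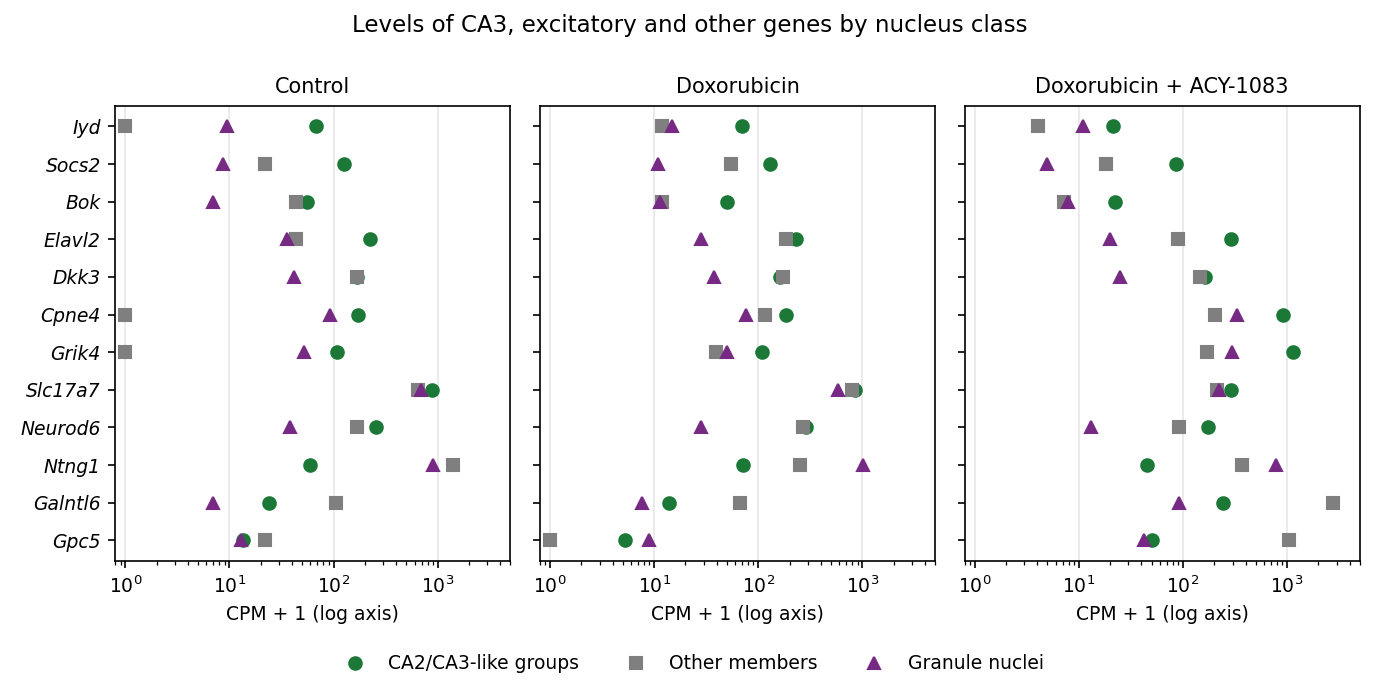
Levels of genes that the rule did not use (horizontal axis, CPM with 1 added, log scale), 1 panel per library, in the CA2/CA3-like groups, the other selected nuclei and granule nuclei, without error bars. Socs2 and Elavl2 are highest in the CA2/CA3-like groups of all 3 libraries, and the other selected nuclei with ACY-1083 have 17.3 and 87.9 CPM of them.

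RNA of other cell types was measured in the same nuclei. Choroid plexus genes (5 genes) summed to 807, 1710 and 796 CPM, of which Ttr, transthyretin, made up 719, 1579 and 650 CPM, and over all barcodes Ttr had 1312, 2987 and 822 CPM. Every choroid plexus and astrocyte gene of the lists had UMIs in the selected nuclei of each library. Astrocyte genes (7 genes) summed to 916, 1077 and 1010 CPM and microglial genes (7 genes) to 44.0, 30.6 and 156 CPM. Granule neuron genes (8 genes) summed to 116, 81.1 and 710 CPM and CA1 genes (6 genes) to 168, 145 and 857 CPM. Over all barcodes these lists summed to 351, 337 and 1176 CPM and to 422, 420 and 967 CPM, so they were higher with ACY-1083 there too. Mossy cell genes (7 genes), which mark the excitatory cells of the dentate hilus, summed to 228, 280 and 136 CPM. What part these RNAs had in the differences below was not tested.

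Beside the genes of the rule, 15 genes were picked by their level over CA1 nuclei (20, 24 and 26 nuclei chosen in the same way) or granule nuclei (620, 787 and 588), whichever was higher. These follow from the choice of nuclei and are a description. With so few CA1 nuclei, 0 UMIs there still allowed up to 61.6, 65.5 and 24.7 CPM. Ptpn14, Arhgap22, Cenpf, Cldn22 and Evc, with 0 UMIs in CA1 nuclei, lay below these limits in each library. They were therefore not shown to stand above CA1 nuclei. Csf2rb2, Gm32647, 4930473D10Rik and Gm16070 lay below the limit in at least 1 library, and Ifi203 did so with ACY-1083. In those libraries they were not shown to stand above CA1 nuclei either. Ifi203 and Mndal, interferon-inducible genes of the same family that overlap on chromosome 1 (173920407 to 173942672 and 173849126 to 173942491, minus strand), can share reads, and stood at 108, 119 and 18.4 CPM and at 68.4, 65.8 and 36.3 CPM, with granule levels of at most 3.94 CPM. Cpne9, a copine that binds membranes when calcium rises, had 99.4, 126 and 36.0 CPM and 10.3, 9.2 and 8.24 CPM in granule nuclei. Homer3, a postsynaptic scaffold of metabotropic glutamate receptors, had 84.7, 84.2 and 31.7 CPM and 19.7, 15.8 and 11.5 CPM. In the CA2/CA3-like groups of the library given both agents they had 64.4 CPM each. Calcium sensors were also among the 15, with Camk1d, a calmodulin-dependent kinase, 2.62-fold (1.84 to 3.79), 2.56-fold (1.83 to 3.59) and 1.62-fold (1.53 to 1.72) over granule nuclei, and Cabp1, a neuronal calcium-binding protein, 2.46-fold, 2.54-fold and 1.86-fold. The others were Csf2rb2, Gm32647, 4930473D10Rik, Ptpn14, Arhgap22, Cenpf, Gm16070, Cldn22 and Evc. Csf2rb2, a cytokine receptor subunit and a mossy cell gene of the lists, had 56.5, 21.3 and 0.757 CPM in the CA2/CA3-like groups against 52.1, 76.5 and 14.3 CPM in all selected nuclei, so in the libraries with doxorubicin it lay mostly in the unnamed groups.

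Doxorubicin was set against control in the selected nuclei as a whole, which were similar in number and depth in these libraries. Of 2160 genes with at least 50 UMIs in the higher library, 35 were higher with doxorubicin (1.62%) and 51 lower (2.36%), 86 in all (3.98%). The split between higher and lower turned with the scaling: it was 50 to 27 with TMM factors, 58 to 23 with median-of-ratios factors, 47 to 33 when Malat1 and mitochondrial genes were left out of the totals, and 46 to 31 after the median of genes of like intron length was subtracted. In the CA2/CA3-like groups alone, 19 of 1687 genes were higher (1.13%) and 66 lower (3.91%). The median log2 difference over all genes tested was -0.05 in the selected nuclei, -0.11 in the CA2/CA3-like groups and -0.04 in granule nuclei. When each interval was widened for the number of genes compared, 2 genes remained higher, Ttr and Gm47283, and 0 lower. Ttr rose 2.20-fold (1.96 to 2.46) in the selected nuclei, beside 1.93-fold in granule nuclei and 2.28-fold over all barcodes. Gm47283, a predicted gene named here after its values were seen, went from 896 to 1457 CPM, 1.63-fold (1.46 to 1.81), and was also among the genes that remained higher in granule nuclei. No gene outside those found in granule nuclei too passed the widened intervals in the selected nuclei.

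Among the leading genes higher with doxorubicin, Ccdc82 (chromosome 9, 13246955 to 13292520, plus strand), a coiled-coil gene, had 34.2 CPM (21 UMIs) with control and 79.6 CPM (52 UMIs) with doxorubicin, 2.29-fold (1.38 to 4.06), and was 1.63-fold (1.22 to 2.22) in granule nuclei. Gpr107 (chromosome 2, 31152316 to 31218775, plus strand), a membrane protein of the Golgi and vesicle transport, had 45.6 and 93.4 CPM, 2.03-fold (1.29 to 3.33), and 0.916-fold (0.677 to 1.24) in granule nuclei. Luzp2, a leucine zipper gene, went from 37.5 to 81.1 CPM, 2.14-fold (1.3 to 3.7), beside 2.05-fold (1.14 to 4.08) in granule nuclei, where it had 15 and 41 UMIs. For Ccdc82 and Luzp2 both kinds of nuclei had more with doxorubicin, and for Gpr107 the granule interval held 1. Atpif1, the inhibitor of the ATP synthase in reverse, rose 1.71-fold (1.24 to 2.40) from 96.1 to 165 CPM, beside 1.41-fold (1.15 to 1.73) in granule nuclei. Chchd2, which acts in the respiratory chain and as a transcriptional regulator, rose 1.63-fold (1.18 to 2.30), beside 1.34-fold (1.13 to 1.61). Cox4i1, a subunit of cytochrome c oxidase, was 1.49-fold (1.12 to 2.0), just under the call. Ppia, the cyclophilin A gene, rose 1.57-fold (1.23 to 2.02), Ndst1, a heparan sulfate sulfotransferase, 1.84-fold, Fam168a 1.72-fold, and Iqgap1, a scaffold of the actin cytoskeleton, 1.70-fold. Sparcl1, a matricellular protein that astrocytes also make, rose 1.82-fold (1.23 to 2.77). Zcchc7, a zinc finger gene of nuclear RNA surveillance, was 1.31-fold (1.17 to 1.48) and not called.

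On the lower side Ccdc50 (chromosome 16, 27388869 to 27452218, plus strand), a ubiquitin-binding protein, had 91.3 CPM in control (56 UMIs) and 36.7 CPM in doxorubicin (24 UMIs), 0.407-fold (0.239 to 0.660), and was 0.936-fold (0.717 to 1.23) in granule nuclei. Lynx1 (chromosome 15, 74747852 to 74753046, minus strand), which damps nicotinic acetylcholine receptors, had 122 and 62.8 CPM, 0.516-fold (0.342 to 0.761), and 0.971-fold in granule nuclei. Tenm1, a teneurin that guides synaptic partner choice, had 112 and 59.7 CPM, 0.534-fold (0.349 to 0.797), and 0.947-fold (0.841 to 1.07) in granule nuclei. Tenm1 was in the CA2/CA3-like groups under the minimum of 50 UMIs and not called, at 0.241-fold (0.0859 to 0.519). These genes fell in the selected nuclei, while in granule nuclei each interval held 1. Trpc4ap, an adaptor of TRP channels and of a ubiquitin ligase, fell to 0.522-fold, and Rab26, a small GTPase of synaptic vesicles, to 0.534-fold. Cyhr1 fell to 0.527-fold and Tpp2, a large cytosolic peptidase, to 0.561-fold. Tsc22d1, a leucine zipper regulator of transcription, fell to 0.615-fold and Nop56, a core protein of the box C/D small nucleolar particle, to 0.581-fold (0.403 to 0.825). Luc7l2, a splicing factor of the U1 particle, was 0.718-fold (0.626 to 0.823) with 488 and 373 UMIs, and Tnik, a kinase of the postsynaptic density, 0.677-fold (0.549 to 0.831), both short of the call.

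Ttn, the titin gene, also fell, from 223 to 141 CPM, 0.632-fold (0.479 to 0.827), and in the CA2/CA3-like groups it was 0.423-fold (0.295 to 0.589). Only 47 of the 92 Ttn UMIs of doxorubicin lay in its CA2/CA3-like group, whereas 135 of the 137 of control did. The control group of 59 led by Ttn and Csf2rb2 was named CA2/CA3-like and the doxorubicin group of 59 led by these genes had no name, so the CA2/CA3-like groups of these libraries were not made up alike. With widened intervals, 2 genes were higher in the CA2/CA3-like groups, again Ttr and Gm47283, and 3 lower, Ttn, Nbea and Ntm. Ntm, the neurotrimin gene, was 0.511-fold (0.384 to 0.670) in those groups and 0.914-fold (0.753 to 1.11) in the selected nuclei as a whole, where it was not called.

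**Figure D4:**
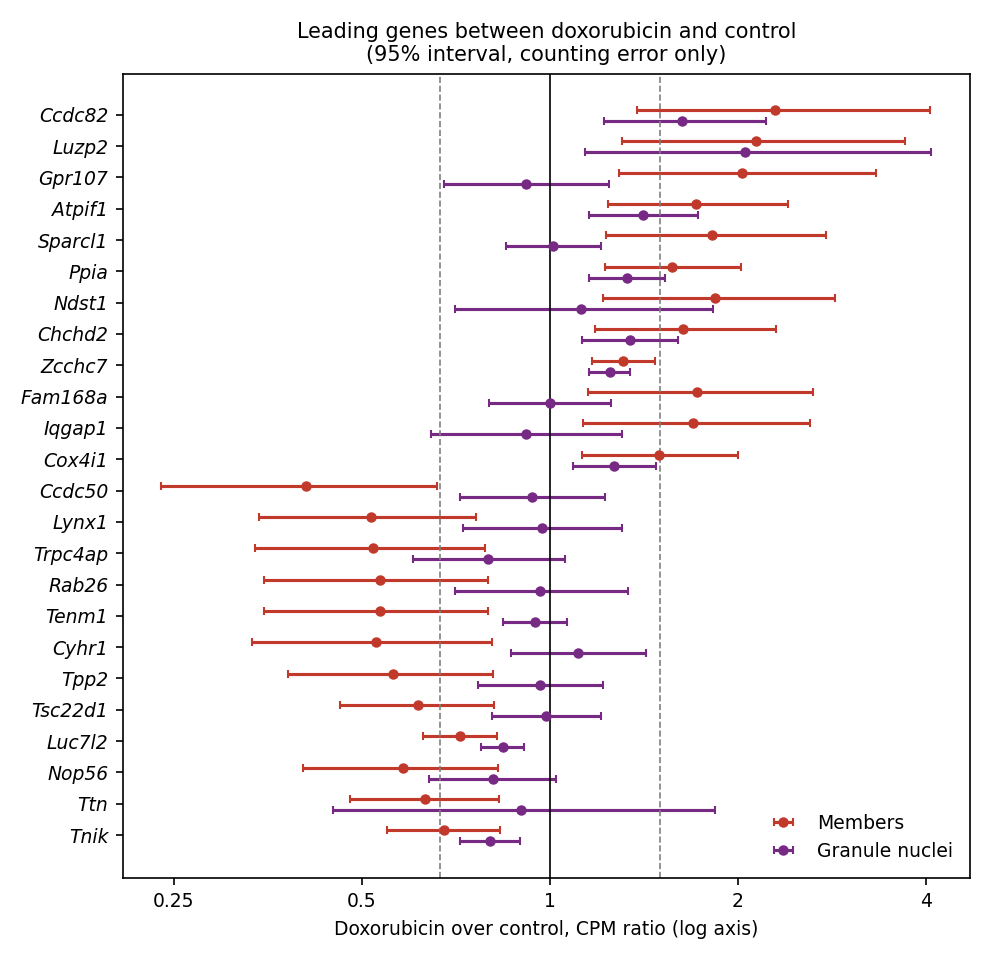
CPM ratio of doxorubicin over control (horizontal axis, log scale) for the 12 leading genes in each direction, in the selected nuclei and in granule nuclei, with points as ratios and bars as 95% counting intervals; dashed lines mark 1.5-fold either way. Ccdc50 lies at 0.407-fold and Lynx1 at 0.516-fold in the selected nuclei, while their granule intervals hold 1.

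Genes of the synapse were read against the 3.98% of all genes called either way. Of 7 kainate receptor genes 4 had enough UMIs and none was called: Grik2 was 1.18-fold (0.880 to 1.58), Grik4 0.908-fold (0.622 to 1.32), Grik5 0.771-fold (0.600 to 0.989) and their auxiliary subunit Neto1 1.05-fold (0.813 to 1.36). Of 14 AMPA receptor genes 4 had enough UMIs, with Gria1 at 0.988-fold, Gria2 at 1.04-fold, Gria3 at 1.03-fold and the auxiliary subunit Cacng2 at 0.716-fold (0.455 to 1.11). The NMDA receptor subunits Grin1, Grin2a and Grin2b were at 0.916-fold, 0.885-fold (0.795 to 0.985) and 1.03-fold. For the abundant Gria2 (4470 and 4958 UMIs in all selected nuclei) the interval of 1.0 to 1.08 is narrow, and for Cacng2 it is wide. Both cover counting error only, so with 1 library per group neither bounds an effect of treatment. None of 18 genes of presynaptic release and none of 19 of the postsynaptic density was called, with medians of -0.03 and -0.01 on the log2 scale. Beside 3.98%, 0 of lists this short is near the background. Erc2, a scaffold of the active zone, was 0.793-fold (0.682 to 0.921), and Homer1, whose short form is an immediate early transcript, 1.35-fold (0.989 to 1.87). Of 13 potassium channel genes 11 were below 1 and 0 were called, with a median of -0.15. In granule nuclei the median of this list was -0.14.

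Of adhesion and guidance genes 1 each was called, counts near the 3.98% of all genes. Tenm1 was the one of 27 adhesion genes, and Slit3, a ligand of Robo receptors, the one of 16 guidance genes, at 0.666-fold (0.466 to 0.941) from 134 to 88.8 CPM. The list medians were -0.09 and -0.09, against -0.05 over all genes tested. Nrp2, a semaphorin receptor that helps guide mossy fibres, was 0.732-fold (0.553 to 0.964) and short of the call.

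Ribosomal protein genes stood higher on the whole. Of 43 tested, 33 were above 1 and 5 rose, with a median log2 difference of 0.15: Rps29 rose 1.82-fold (1.23 to 2.77), Rpl38 1.77-fold (1.14 to 2.86), Rpl26 1.60-fold, Rpl34 1.58-fold and Rpl9 1.5-fold (1.10 to 2.07). Of all genes tested 1.62% rose. In granule nuclei the median of this list was 0.25. Of 20 genes of oxidative phosphorylation in the selected nuclei 0 were called, with a median of 0.15, and in granule nuclei the median was 0.33. In the CA2/CA3-like groups the medians were 0.06 for ribosomal and -0.02 for oxidative phosphorylation genes. There 5 of 25 ribosomal genes were called higher, beside 1.13% of all genes tested in these groups. The mitochondrially encoded mt-Co1 was 1.13-fold (0.744 to 1.74) and mt-Co3 0.695-fold (0.467 to 1.02). All 13 mitochondrially encoded genes summed to 0.713-fold (0.585 to 0.866), from 244 and 185 UMIs. In the CA2/CA3-like groups 1 of them had enough UMIs and was called lower, beside 3.91% of all genes. In granule nuclei the median of the 6 with enough UMIs was 0.51, against -0.04 over all genes tested. Set against granule nuclei of the same library, the CA2/CA3-like groups had 1 of 71 ribosomal genes higher and 4 lower, with a median of -0.09. Of all genes in that comparison 1.97% were higher and 2.12% lower. Ttr, a gene of the choroid plexus, was also higher with doxorubicin, and whether free RNA had a part in these values was not tested.

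Of the genes of topoisomerases and DNA break repair 4 had enough UMIs and none was called in the selected nuclei, with a median log2 difference of -0.46. Relative to granule nuclei, 0 of 7 were called in the CA2/CA3-like groups, with a median of -0.09. Top2b, the topoisomerase II of neurons, went from 97.8 CPM (60 UMIs) to 65.8 CPM (43 UMIs), 0.675-fold (0.444 to 1.01). In the CA2/CA3-like groups Top2b was called lower, at 0.588-fold (0.357 to 0.929), the 1 call among 4 genes of this list tested there. Of all genes tested in these groups 3.91% were called lower. Top2b did not remain with widened intervals. Top1 was 0.763-fold (0.599 to 0.967), Trp53bp1, which marks double-strand breaks for repair, 0.689-fold (0.499 to 0.943), and Parp1, a sensor of strand breaks, 0.997-fold (0.728 to 1.37). In granule nuclei Top1 and Top2b were at 1.01-fold and 0.931-fold with intervals that held 1, and Trp53bp1 at 0.685-fold (0.558 to 0.840). Of 22 p53 target genes 1 had enough UMIs, Plk2, at 1.16-fold (0.841 to 1.60). Heat shock chaperones had 1 of 9 called, beside 3.98% of all genes. Dnajb4 rose 1.59-fold (1.10 to 2.34) from 76.6 to 122 CPM, while Hspa8 and Hsp90aa1 were at 0.857-fold and 0.85-fold with intervals that held 1. The antioxidant genes Sod2, Mt1 and Mt3 were at 1.01-fold, 1.11-fold and 1.21-fold, none called. Of 19 tubulin and microtubule genes, which include the motors of axonal transport, 0 were called, with a median of -0.11, with Mapt, the tau gene, at 0.782-fold (0.611 to 0.999), and Ttll7, a tubulin polyglutamylase, at 1.31-fold (0.946 to 1.84). Histone deacetylases had 2 genes with enough UMIs, Hdac7 at 1.01-fold and the sirtuin Sirt7 at 0.700-fold (0.488 to 0.994).

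Hdac6, the target of ACY-1083 (chromosome X, 7930120 to 7947889, minus strand), had 44.0 CPM (29.0 to 64.0), 39.8 CPM (26.0 to 58.3) and 21.5 CPM (17.1 to 26.6) in the selected nuclei, from 27, 26 and 84 UMIs. Control and doxorubicin overlapped, at 0.905-fold (0.507 to 1.61), so a difference smaller than these bounds was not detectable. The interval with ACY-1083 overlapped that of doxorubicin only at its edge, which does not show that the levels were alike. Over all barcodes the intervals were apart, at 55.6 to 62.1 CPM with doxorubicin and 26.3 to 29.0 CPM with ACY-1083. CPM of these libraries cannot be set side by side directly, as described below. Granule nuclei had 76.2, 59.1 and 27.9 CPM and all barcodes 65.3, 58.8 and 27.6 CPM. An inhibitor acts on the HDAC6 protein, which these data do not measure.

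The library given both agents could not be set directly beside doxorubicin gene by gene. Over 8844 genes the ratio of the selected nuclei rose with the total intron length of the gene, with a Spearman coefficient of 0.61 across genes, which are not independent replicates. Of 10 equal classes of genes by intron length, the shortest had a median log2 ratio of -1.05 and the longest 2.31. Granule nuclei showed the like trend, 0.67 over 7816 genes, from -1.37 to 1.88, whereas doxorubicin against control had a coefficient of -0.06 in the selected nuclei. The files' headers name Cell Ranger 4.0.0 for control and doxorubicin and 5.0.0 for the library given both agents, and the sources used here do not give whether reads in introns entered the counts. In the CA2/CA3-like groups it was 0.60, from -1.11 to 2.55. There it was much smaller when each gene was first set against the granule nuclei of its own library, at 0.08, with medians of 0.11 and 0.18 in the shortest and longest class. The comparisons below are therefore of ratios within a library.

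**Figure D5:**
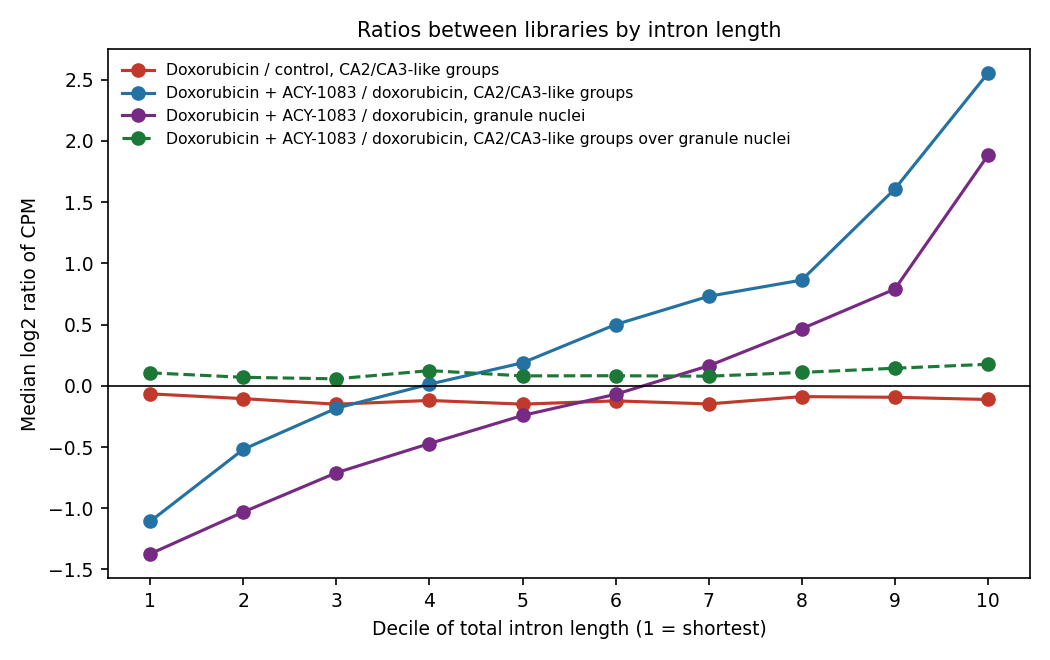
Median log2 ratio (vertical axis) of genes in 10 classes of total intron length (horizontal axis, shortest to longest) for doxorubicin over control in the CA2/CA3-like groups, for the library given both agents over doxorubicin in those groups and in granule nuclei, and for the groups relative to granule nuclei. The direct ratio in the CA2/CA3-like groups climbs from -1.11 to 2.55, and relative to granule nuclei the first and last classes have 0.11 and 0.18.

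Set against CA1 nuclei, the pyramidal neurons they drive, the selected nuclei could be compared for few genes, since only 20, 24 and 26 CA1 nuclei were found. Doxorubicin against control had 2 of 200 genes higher (1%) and 7 lower (3.5%). Kmt2a, a histone methyltransferase, was 1.75-fold (1.01 to 3.02) and Hnrnpa2b1, which carries RNA into dendrites, 1.57-fold (1.0 to 2.47). Negr1, a cell adhesion protein of the IgLON family, was 0.481-fold (0.271 to 0.854), Clk4, a kinase of splicing factors, 0.510-fold, Tra2a, a splicing factor, 0.529-fold, and Grm5, a metabotropic glutamate receptor, 0.632-fold (0.445 to 0.897). Syt7 and Camkv were at 0.612-fold and 0.618-fold. For each of these 8 genes the level in the few CA1 nuclei moved more than that in the selected nuclei: Negr1 had 217 and 236 CPM in the latter and 334 and 764 CPM in CA1, and Grm5 896 and 901 CPM against 968 and 1545 CPM. With intervals widened for the number of genes none of these 8 remained. AC149090.1, a predicted gene named here after its values were seen, was the 1 gene that did, on the lower side.

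Doxorubicin with ACY-1083 against doxorubicin, relative to CA1, had 45 of 225 genes higher (20%) and 5 lower (2.22%). This split turned with the scaling, at 14 to 20 with TMM factors, 15 to 20 with median-of-ratios factors, 27 to 7 without Malat1 and mitochondrial genes and 15 to 17 after subtraction of the intron-length median. Iqgap2, an actin scaffold, was 4.24-fold (2.44 to 7.37), Ntm 3.24-fold (2.33 to 4.51), Gabra2, a GABA-A receptor subunit, 2.90-fold (1.70 to 4.95), and Grin2a 1.70-fold (1.33 to 2.19). Ank2, an axonal scaffold, was 0.507-fold (0.367 to 0.700), Pcsk2, a prohormone convertase, 0.483-fold (0.332 to 0.702), and Snap25, a SNARE of synaptic vesicles, 0.451-fold (0.281 to 0.725). The selected nuclei of the 2 libraries differed in makeup, and Iqgap2 was among the leading genes of the unnamed group of 160, so these values describe a mixture. With intervals widened for the number of genes, 13 remained higher, among them Iqgap2, Ntm, Gabra2, Grin2a and AC149090.1. On the lower side 2 remained, Pcsk2 and Ank2, while Snap25 did not.

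The CA2/CA3-like groups were next set against granule nuclei of their own library, which gave more genes. These groups were formed from all genes, so the values are a description. Those of control kept a group of 59 nuclei led by Ttn and Csf2rb2, and that of doxorubicin left out a group of 59 led by these genes. What part this difference in makeup had in the ratios of doxorubicin to control was not tested. Doxorubicin against control had 66 of 3354 genes higher (1.97%) and 71 lower (2.12%), and 0 on either side when intervals were widened for the number of genes. Cntnap1, a paranodal adhesion protein, was 2.38-fold (1.41 to 4.03), Camk2d, a calmodulin-dependent kinase, 2.66-fold (1.37 to 5.17), and Gas7, a growth arrest gene that shapes neurites, 2.08-fold (1.33 to 3.25). Gpr107 was 2.16-fold (1.23 to 3.8). Among lower genes were Ankrd13d at 0.374-fold (0.216 to 0.648), Ptn, the growth factor pleiotrophin, at 0.442-fold (0.282 to 0.692), Khdrbs2, a splicing regulator of neurexins, at 0.407-fold, Lynx1 at 0.425-fold and Mphosph8, a reader of methylated histone H3, at 0.474-fold. Camk2d had 35.3 and 59.7 CPM in the CA2/CA3-like groups and 61.6 and 38.8 CPM in granule nuclei, so both sides of this ratio moved. Lynx1 had 125 and 51.1 CPM in the former and 73.6 and 71.6 CPM in the latter, so only one side did.

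With ACY-1083 added, 209 of 3470 genes were higher relative to granule nuclei (6.02%) and 68 lower (1.96%), with a median log2 difference of 0.10 over all genes. The split was 146 to 111 with TMM factors, 131 to 116 after subtraction of the intron-length median and 87 to 179 without Malat1 and mitochondrial genes, so which side was larger turned with the scaling. The 10 leading genes on each side were called under all 3. With intervals widened for the number of genes, 20 were higher and 5 lower. Among the genes described next, Luzp2, Cpe, Sv2b, Rapgef5, Kcnk2, Ahcyl2, Pde1a, Klhl7, Rims2, Rbfox2 and Rasal2 remained. Hs3st4, Pid1 and Setd1a did not.

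Luzp2 led the higher genes. In the CA2/CA3-like groups it had 83.1 CPM in doxorubicin (39 UMIs) and 670 CPM with ACY-1083 (885 UMIs), while granule nuclei had 26.9 and 27.9 CPM, a difference of 7.72-fold (4.72 to 12.6). Cpe, a carboxypeptidase that matures neuropeptides, had 205 and 563 CPM against 206 and 164 CPM in granule nuclei, 3.45-fold (2.67 to 4.46). Sv2b, a synaptic vesicle glycoprotein, had 134 and 445 CPM against 28.9 and 25.4 CPM, 3.76-fold (2.38 to 5.93). CPM of these libraries cannot be set side by side directly, so these values say only that the ratio to granule nuclei within each library differed, not on which side. Hs3st4, a heparan sulfate sulfotransferase, had 55.4 and 1839 CPM against 13.8 and 132 CPM, 3.49-fold (1.95 to 6.22). Kcnk2, a two-pore potassium channel, was 2.92-fold (1.85 to 4.6). At Leiden resolution 1, CA2/CA3-like groups of 109 and 54 nuclei were found with ACY-1083. Kcnk2 was among the 10 leading genes of the group of 54 and not of the other. That group had a mean log2 difference of 0.504 on the further CA3 genes, just over the naming threshold of 0.5. Whether these ratios differed between the groups was not tested. Rapgef5, Pid1, Ahcyl2 and Pde1a, a calmodulin-dependent phosphodiesterase, were between 2.62-fold and 3.48-fold.

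Setd1a, a histone methyltransferase, led the lower genes at 0.273-fold (0.145 to 0.513), with 28 UMIs in the CA2/CA3-like groups of each library. Klhl7, a substrate adaptor of a ubiquitin ligase, had 475 CPM in doxorubicin and 201 CPM with ACY-1083 against 108 and 114 CPM in granule nuclei, 0.399-fold (0.308 to 0.516). Rims2, a scaffold of the active zone, was 0.585-fold (0.476 to 0.717), with 456 and 547 CPM against 170 and 349 CPM. Rbfox2, a splicing factor, was 0.578-fold (0.456 to 0.734) and Rasal2, a Ras GTPase-activating protein, 0.435-fold (0.307 to 0.618). Klhl7 was also among the 10 genes that led the doxorubicin CA2/CA3-like group.

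By role, the lists below held few called genes each, to be read beside the 6.02% of all genes called higher and 1.96% lower. Grik4 was 1.76-fold (1.22 to 2.53), 1 of 4 kainate receptor genes. Gabra5, the GABA-A subunit of tonic inhibition, was 1.82-fold (1.2 to 2.77), 1 of 5. Of 20 sodium and calcium channel genes 2 were higher, Cacna1h, a T-type calcium channel, at 2.27-fold (1.39 to 3.72), and Cacna1b, an N-type channel, at 1.52-fold (1.09 to 2.12). Of 7 AMPA and 3 NMDA receptor genes 0 were called, with medians of -0.02 and -0.04. Of 29 adhesion genes 4 were higher, Cntnap2 at 1.92-fold, Tenm4 at 1.81-fold, Negr1 at 1.7-fold and Il1rapl1 at 1.52-fold. Bcan, the perineuronal net proteoglycan brevican, was 2.22-fold (1.29 to 3.84) and Ntrk2, the receptor of the neurotrophin BDNF, 1.7-fold (1.33 to 2.17). Sgk1, a kinase that glucocorticoids induce, was 1.85-fold (1.18 to 2.91) and Nr3c2, the mineralocorticoid receptor, 1.57-fold (1.12 to 2.2). Tubulin and microtubule genes had 1 of 25 called, Stmn2, a tubulin-binding protein of growth cones, at 1.88-fold (1.33 to 2.64). Of 6 histone deacetylase and sirtuin genes Hdac2 was 0.533-fold (0.302 to 0.939) and Sirt7 2.22-fold (1.41 to 3.5). Top2b was 1.63-fold (1.04 to 2.58). Under each of the 3 other scalings Grik4, Gabra5, Cacna1h, Cntnap2, Tenm4, Bcan, Sgk1, Stmn2, Hdac2 and Sirt7 were still called. Cacna1b, Il1rapl1, Nr3c2 and Top2b were called under none of them, and Negr1 and Ntrk2 not when Malat1 and mitochondrial genes were left out. Of all these genes, only Negr1 remained when intervals were widened for the number of genes. The list medians were 0.49 for GABA-A receptors, 0.40 for kainate receptors and 0.26 for potassium channels, above the 0.10 of all genes, and -0.01 for 51 oxidative phosphorylation and 0.09 for 71 ribosomal genes.

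Some genes were called in opposite directions by the comparison of doxorubicin with control and by that of both agents with doxorubicin. Both comparisons use the doxorubicin library, so any departure of that library enters them with opposite sign. This includes the makeup of its CA2/CA3-like group, which left out an unnamed group led by the same genes as a group that control kept. Among those relative to CA1 were Negr1, at 0.481-fold and then 2.59-fold, Clk4, at 0.510-fold and 1.85-fold, and Tra2a, at 0.529-fold and 1.94-fold. Among those of the CA2/CA3-like groups relative to granule nuclei, Lynx1 had 125, 51.1 and 46.2 CPM where granule nuclei had 73.6, 71.6 and 24.4 CPM, 0.425-fold (0.248 to 0.729) and then 2.62-fold (1.5 to 4.57). Gas7 had 67.1, 134 and 78.7 CPM where granule nuclei had 152, 145 and 169 CPM, 2.08-fold and then 0.502-fold (0.353 to 0.712). Mphosph8 had 180, 95.9 and 80.2 CPM against 166, 188 and 79.9 CPM, 0.474-fold and then 1.96-fold. Khdrbs2, at 0.407-fold and 2.18-fold, Cyhr1, at 0.453-fold and 2.11-fold, Mical3, at 0.561-fold and 1.97-fold, Ahcyl2, at 0.536-fold and 2.67-fold, and Trim9, at 0.643-fold and 1.51-fold, were first lower and then higher. Atf6, a sensor of stress in the endoplasmic reticulum, at 2.13-fold and 0.490-fold, and Clk3, a kinase of splicing factors, at 1.99-fold and 0.428-fold, were first higher and then lower.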

How the data were processed

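Nuclei from frozen hippocampus were counted in 3 libraries, 1 per group. The authors deposited UMI counts without normalization, per the file headers and values, for 32285 genes per barcode. Cell Ranger 4.0.0 (control, doxorubicin) and 5.0.0 (doxorubicin with ACY-1083) stand in the headers, and version 6.0.0 with mm10 in the submitters' processing notes. The 3 libraries held 19175447, 21458785 and 62151258 UMIs. All deposited barcodes were used, and barcodes shared between libraries numbered 42, 29 and 46 (control with doxorubicin, control with both agents, doxorubicin with both agents).

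The members, gene lists and comparisons were chosen with earlier results of these data known. UMIs of the selected, CA1 and granule nuclei were summed per library and divided by the sum (CPM). Ratios had 0.5 UMIs added and an exact conditional Clopper-Pearson interval, levels an exact Poisson interval, and shares a Clopper-Pearson interval, all at 95% and for counting error only. Reads are not independent samples of mice, so no replicate error can be given. Ratios needed 50 UMIs in the higher library, and differences of ratios 20 UMIs in each of 4 sums. Members were clustered per library in scanpy 1.11.5 (1000 variable genes, 15 principal components, 15 neighbours, Leiden resolution 0.5). A group was named for its highest class when the markers' mean log2 difference (20 CPM added) was at least 0.5 over at least 3 detected markers, with no class having more markers than it among the 10 leading genes (for CA2/CA3 the rule genes other than Tafa1 counted), and this threshold was set after the data were seen. Doublets were scored with Scrublet and kept in the main values. TMM factors came from edgeR 4.0.16, and no edgeR test was run. Intron lengths and coordinates are from GENCODE vM21 (GRCm38), matched for 32235 genes (99.8%). Scripts ran in Python 3.11.15 and R 4.3.3 and were tested on simulated counts.

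Named genes were those of the rule and of the CA2, CA3, excitatory and mossy cell lists. The 15 with the highest lower bound over the higher of CA1 and granule nuclei were added. So were the 12 leading genes in each direction for doxorubicin against control and the 10 for each difference of ratios (by the bound nearest to 1). Up to 10 genes called in opposite directions, the 2 most extreme of each of 28 functional lists, and Hdac6 completed them. Predicted, ribosomal, mitochondrially encoded and sex-linked genes and markers of other cell types were left out of the leading genes, and some genes that this rule names are not reported here. The alternatives tried were other rules, filters, scalings, UMI minimums, reference nuclei and the CA2/CA3-like groups alone. The comparison of these groups with granule nuclei, the widened intervals and the subtraction of intron-length medians were among those chosen after the data were seen.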

Additional observations from a re-analysis of the deposited data

How the results depend on the processing

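No paired analysis was possible because each group was 1 pooled library without replicate numbers, and for the same reason no replicate could be left out. The share of nuclei selected in control was 2.51% of barcodes with at least 1000 UMIs, 1.32% after thinning, 0.981% with 4 of 6 genes, and 1.45% in CA2/CA3-like groups at Leiden resolution 1. In doxorubicin these were 2.35%, 1.12%, 0.925% and 1.18%, and 1.25% in the CA2/CA3-like groups. With ACY-1083 they were 5.39%, 3.70%, 2.39% and 1.34%, with 1.32% in the CA2/CA3-like groups and 3.75% with 3 times each other sum.

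For doxorubicin against control, 35 genes higher and 51 lower became 18 and 29 with 4 of 6 genes, 11 and 17 after thinning, 58 and 23 with median-of-ratios factors, 111 and 195 with at least 20 UMIs, 7 and 7 with at least 100, and 179 and 281 with at least 1. Genes lower were 27 with TMM factors, 33 without Malat1 and mitochondrial genes and 31 after the intron-length subtraction, and genes higher were 19 in CA2/CA3-like groups.

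For doxorubicin against control relative to CA1, 2 genes higher became 4 with filtered barcodes, 4 with 4 of 6 genes, 1 with 3 times each other sum, 1 after thinning, 6 with TMM factors, 5 with median-of-ratios factors, 0 with at least 100 UMIs, 54 with at least 1, 1 with 1 UMI added and 4 after the intron-length subtraction. They were 84 relative to granule nuclei, 66 for CA2/CA3-like groups relative to granule nuclei, and 46 with a looser CA1 rule. The 7 lower became 1 after thinning, 1 with at least 100 UMIs, 78 with at least 1, 104, 71 and 50 with those other references.

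For both agents against doxorubicin relative to CA1, 45 genes higher became 5 after thinning, 14 with TMM factors, 15 with median-of-ratios factors, 27 without Malat1 and mitochondrial genes, 1 with at least 100 UMIs, 503 with at least 1, and 15 after the intron-length subtraction. They were 431 relative to granule nuclei, 29 for CA2/CA3-like groups relative to CA1, 209 for those relative to granule nuclei, and 292 with a looser CA1 rule. The 5 lower became 3, 20, 20, 0 (at least 100 UMIs), 39 (at least 1), 17 after the intron-length subtraction, 130, 68 and 50 with those references.

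Of the 94 named genes 0 reversed, 6 lost their call and 6 gained one under some alternative. Of 20 list medians, 7 moved beyond their interval, and that of the antioxidant genes went from 0.155 to -0.0056 with at least 1 UMI. The causes of these changes were not tested. Chchd2 lost its call with 4 of 6 genes, Ttn with median-of-ratios factors, and Atpif1, Ppia and Tsc22d1 in the CA2/CA3-like groups. Depth limits most genes of these nuclei: 2160 of 32285 reached 50 UMIs, and the 20 to 26 CA1 nuclei limit the comparisons with CA1.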
